A study of Mus musculus with 6 samples.

Results

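The genes described here encode the translation initiation factors eIF1 to eIF6 and the elongation factors eEF1 and eEF2, with the proteins that share those symbols. They were taken by symbol (Eif followed by 1 to 6, Eef followed by 1 or 2), leaving out the kinases Eif2ak1 to Eif2ak4 and Eef2k and processed copies, which gave 63 of the 34724 genes in the deposited table. RNA with a poly(A) tail was read directly on a nanopore instrument from 2 mouse cell lines of C3H/HeJ axillary lymph node, both transformed with SV40 and both from adult animals. The line 2H-11 is labelled as tumor endothelial cells and SVEC4-10 as normal endothelial cells, and each had 3 libraries. Since there is 1 line per label, the tumor or normal origin and everything else that sets the lines apart cannot be told apart. The labels do not name separate cultures for the libraries, and p-values then measure only the spread between these samples, which may be technical.

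Initiation begins when eIF2 carries the initiator tRNA to the small ribosomal subunit, helped by eIF1, eIF1A, eIF3 and eIF5. The eIF4 proteins bind the mRNA cap and unwind the leader, and eIF5B joins the large subunit at the start codon. During elongation eEF1A delivers each aminoacyl-tRNA, eEF1B recharges eEF1A with GTP, eIF5A relieves stalled ribosomes and eEF2 moves the ribosome along the message. Cells adjust output mainly through phosphorylation of eIF2 and eEF2 and through the binding of eIF4E by proteins that sequester it. RNA counts read neither the phosphorylation nor the binding.

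Total counts ran from 3628400 to 16798666 per library, and SVEC4-10 replicate 3 was the deepest. The members took 2.35% to 2.91% of all counts, and Eef1a1 alone took 25.4% to 31.7% of the members' reads. Endothelial markers summed to 13.6 to 22.0 CPM (a gene's share of its library's counts, scaled to 1000000) in 2H-11 and to 4.21 to 6.19 CPM in SVEC4-10. Of the 15, 12 stayed below 1 CPM in each of the 6 libraries, and 7 of these were without any count, among them Vwf, Cldn5, Tie1 and Erg. The 5 mesothelial markers summed to 41.5 to 45.1 CPM in 2H-11, beside 3396 to 4290 CPM in SVEC4-10, and all 5 were lower in 2H-11. Their part in the differences below was not tested. In bulk libraries fewer cells with a transcript and less transcript per cell cannot be told apart.

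Most translation factors did not pass the test between the lines. Of 59 members with enough counts to be tested, 10 passed (quasi-likelihood test of edgeR with p adjusted by Benjamini-Hochberg, under 0.05), 3 higher and 7 lower in 2H-11. That is 16.9% of the members, where 36.2% of all 13187 genes tested passed, 20.1% higher and 16.2% lower. Among genes with Ensembl identifiers, which all members have, 31.8% passed. Of 2747 such genes with a mean of at least 50 CPM, 33.1% passed, 10.5% higher and 22.6% lower, beside 15.9% of the 44 members at that level, 1 higher and 6 lower. A called change of at least 2-fold was found for 4 of the 59 members, where 24.9% of all genes had one and 18.5% of those with Ensembl identifiers. At 50 CPM or more 1 of the 44 members had such a change (Eif4a2, lower), where 9.97% of the Ensembl genes did. The median size of the log2 fold change was 0.23 for the members, 0.49 for all genes tested and 0.41 for those with Ensembl identifiers. At 50 CPM or more it was 0.22 for the members and 0.31 for the Ensembl genes. A fold change under 1.5 was found for 52 of the 59 members (88.1%), for 56.8% of all genes and for 64.2% of those with Ensembl identifiers, and at 50 CPM or more for 93.2% of the members and 74.3% of the Ensembl genes. The median log2 fold change of the members was -0.07, below the 0.00 of all genes tested and above the -0.10 of those with Ensembl identifiers. At 50 CPM or more it was -0.06 for the members and -0.12 for the Ensembl genes. The levels of the lines did not overlap for 15 members, 9 higher and 6 lower in 2H-11. Of all genes tested 46.8% had no overlap, 28% higher and 18.8% lower. Of the 10149 tested with Ensembl identifiers, 2160 were higher without overlap and 2243 lower. At 50 CPM or more 558 of the 2747 Ensembl genes were higher without overlap and 688 lower, beside 8 and 5 of the 44 members. The other 4 of the 63 members were below the count filter: Eef1a2, Eif4e1b and Eif4ebp3 had no count in any library, and Eif4e3 is given below.

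**Figure D1:**
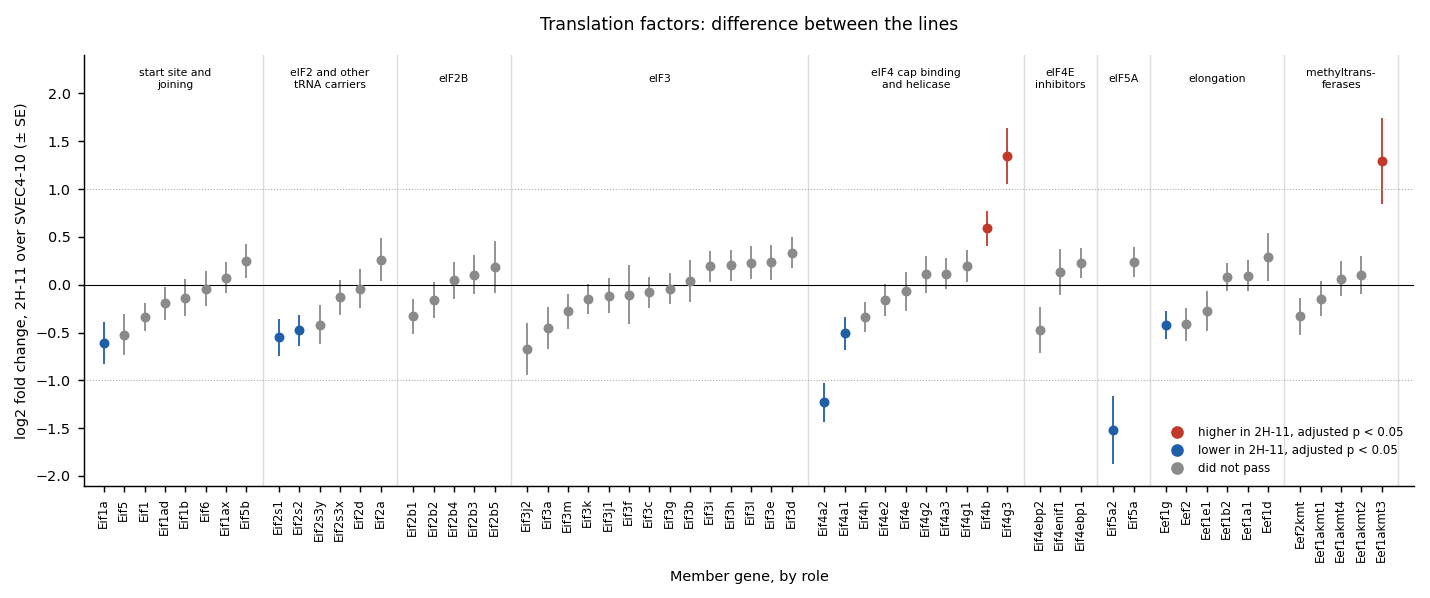
Log2 fold change of 2H-11 over SVEC4-10 with its SE for the 59 members tested, grouped by role; dotted lines mark a 2-fold difference, red and blue points passed the test. Most points lie near 0, and 4 of the 10 members that passed lie beyond 2-fold: Eif4g3 and Eef1akmt3 above, Eif4a2 and Eif5a2 below.

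The 10 calls were of unequal firmness. Eif4a2, Eif4g3 and Eif5a2 passed in the main fit and in each of 17 alternatives, the test against a 2-fold change being the exception. For the other 7 the call was lost in 5 to 8 of 18 alternatives. The split between higher and lower calls depended on the scaling. Fitted on Ensembl genes alone, which brings their median log2 fold change from -0.10 to 0.00, 4 members were higher and 2 lower, and with library size alone 4 were higher and 3 lower. Under Ensembl genes alone Eif1a, Eif2s1, Eif2s2, Eif4a1 and Eef1g no longer passed, with log2 fold changes of -0.51 to -0.32, and Eif3d passed as a higher member. Tested against a 2-fold change, 0 of 59 members passed, and Eif4a2, Eif4g3 and Eif5a2 had an unadjusted p under 0.05.

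The libraries of 2H-11 were not alike over these genes. Replicate 3 was the lowest of its line for 39 of the 59 members tested and replicate 1 the highest for 36. The summed level of all members was 29110, 26009 and 23470 CPM in 2H-11 replicates 1 to 3 and 25308, 26724 and 25050 CPM in SVEC4-10. Genes with ribosomal protein symbols took 16.1%, 17.7% and 19.5% of the counts in 2H-11 replicates 1 to 3, and 16.4% to 17.7% in SVEC4-10. Without 2H-11 replicate 3, 2 members were higher and 2 lower, all 4 among the 10. The part of this order in the calls was not tested beyond leaving out each library.

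Of the 10 calls 4 lay in the eIF4 group, which binds the cap and unwinds the leader. Of its 12 genes 10 were tested, 2 were higher and 2 lower, a share of 40% that is near the 36.2% of all genes and so no result about the group. Eif4a2 encodes the less abundant of 2 near-identical eIF4A helicases (ENSMUSG00000022884, chromosome 16, 23107444 to 23114136, GRCm38). It stood at 207, 184 and 116 CPM in 2H-11 while SVEC4-10 had 437, 378 and 298 CPM. Every 2H-11 library lay below every SVEC4-10 library, and Eif4a2 was 2.35-fold lower (log2 fold change -1.23, SE 0.20, adjusted p = 8.63e-05). Its paralog Eif4a1 (ENSMUSG00000059796, chromosome 11, 69666936 to 69672423) went the same way with a smaller difference. Its levels were 702, 633 and 547 CPM against 682, 938 and 869 CPM, so that SVEC4-10 replicate 1 lay inside the range of 2H-11 (log2 fold change -0.51, SE 0.17, adjusted p = 0.0268). The call for Eif4a1 was lost on Ensembl genes alone (adjusted p = 0.0656) and without any one of 4 libraries, 2H-11 replicates 2 and 3 and SVEC4-10 replicates 2 and 3. Their reads are alike enough that the authors' counting could share some between them. The relative Eif4a3, a core protein of the exon junction complex, did not pass, with levels of 350.3 to 492 CPM in 2H-11, beside 349 to 369 CPM in SVEC4-10.

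The scaffold genes that join the cap to the ribosome differed among themselves. Eif4g3 encodes a paralog of the main scaffold eIF4G1 (ENSMUSG00000028760, chromosome 4, 137993022 to 138208508). It was at 17.3, 17.5 and 16.6 CPM in 2H-11 and at 5.61, 3.31 and 8.69 CPM in SVEC4-10. The 2H-11 libraries were nearly equal and all above those of SVEC4-10, a 2.54-fold difference (log2 fold change 1.35, SE 0.30, adjusted p = 0.00146). Eif4g1 itself had 252, 245 and 232 CPM against 213, 155 and 229 CPM. Although its lines did not overlap, the difference did not pass (adjusted p = 0.398). Eif4g2, which encodes a relative without the eIF4E-binding part, had 461, 401 and 243 CPM against 312, 321 and 321 CPM and did not pass either (adjusted p = 0.701).

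Eif4b, a cofactor that stimulates eIF4A (ENSMUSG00000058655, chromosome 15, 102073773 to 102097173), was higher in 2H-11. Its levels were 433, 350.3 and 247 CPM against 230.2, 187 and 223 CPM, with 2H-11 replicate 3 close to SVEC4-10 replicate 1. The difference was 1.51-fold (log2 fold change 0.59, SE 0.18, adjusted p = 0.0176), and without 2H-11 replicate 1 or 2 or SVEC4-10 replicate 2 or 3 it did not pass (adjusted p 0.0573 to 0.127). Eif4h, a related cofactor, was at 522, 466 and 512 CPM against 690.0, 569 and 526 CPM and did not pass (adjusted p = 0.0978), although its lines did not overlap.

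Among cap-binding proteins, the canonical Eif4e was at 276, 240.2 and 185 CPM against 184, 294 and 203 CPM, and the lines overlapped (adjusted p = 0.827). Eif4e2, a cap-binding relative known as a repressor, was at 169, 171 and 148 CPM against 158, 168 and 183 CPM (adjusted p = 0.485). Eif4e3 encodes a further cap-binding relative (ENSMUSG00000093661, chromosome 6, 99625135 to 99666771) and was counted in 2H-11 alone, with 12, 6 and 13 reads, or 2.23, 1.46 and 2.23 CPM. The 3 libraries of SVEC4-10 had no read, which allows up to 0.121 CPM over the line (3 counts over the summed libraries, for counting error only). With the 2H-11 mean taken as measured, from 31 reads, that limit puts Eif4e3 16.3-fold higher in 2H-11, and 5.21-fold without SVEC4-10 replicate 3. The counting error of the 2H-11 reads is not in these values, so they are not strict lower limits. Eif4e3 fell under the count filter of the main fit. With no filter it passed by edgeR (adjusted p = 1.67e-07).

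The proteins that hold eIF4E back did not pass with all libraries. Eif4ebp1, the best known target of mTOR in translation, had 768, 822 and 897 CPM in 2H-11, beside 746, 551 and 698 CPM in SVEC4-10. All 2H-11 libraries were higher, by less than the test could call (log2 fold change 0.23, SE 0.16, adjusted p = 0.272). Eif4ebp2 was at 28.8, 24.6 and 22.7 CPM against 38.3, 19.8 and 40.3 CPM (adjusted p = 0.135), with SVEC4-10 replicate 2 below every 2H-11 library, and passed as lower without that library (0.0158). Eif4enif1, which carries eIF4E into the nucleus, had a log2 fold change of 0.13 (SE 0.24). With all libraries, none of these 3 had an unadjusted p under 0.05 by edgeR, DESeq2 or limma-voom.

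**Figure D2:**
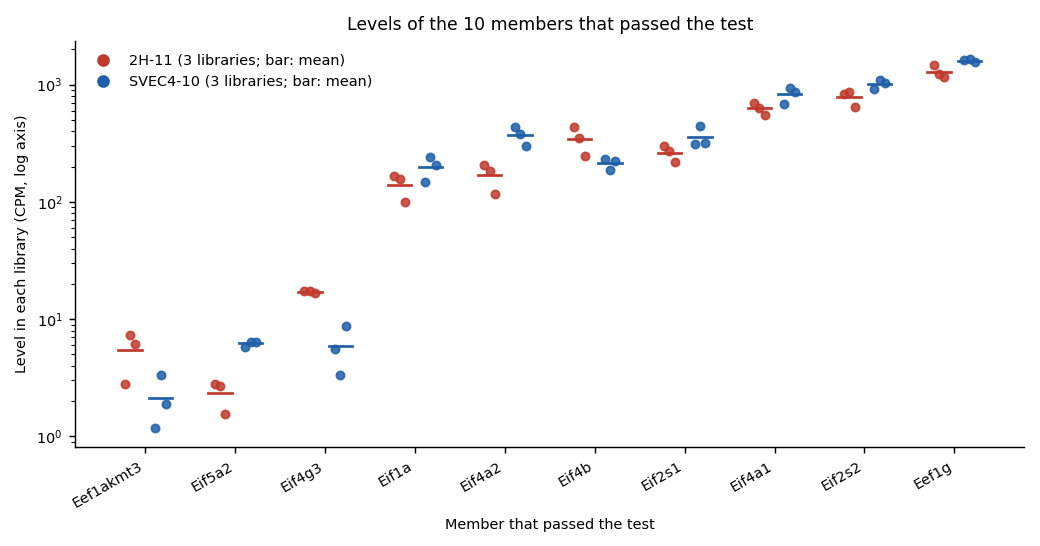
Level in CPM (log axis) of the 10 members that passed the test, each point 1 library and each bar the mean of 3 libraries of a line. The lines are clearly apart for Eif5a2, Eif4g3 and Eif4a2, overlap for Eef1akmt3, Eif1a and Eif4a1, and lie close without overlap for Eif4b, Eif2s1, Eif2s2 and Eef1g.

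The eIF2 complex, the tRNA carrier whose alpha subunit is the target of stress kinases, had 2 of its 4 subunit genes lower in 2H-11. Together with the other tRNA carriers 2 of 6 passed (33.3%), where 36.2% of all genes tested passed, 16.2% as lower. So few genes are not read as a result about the group. Eif2s1, the alpha subunit (ENSMUSG00000021116, chromosome 12, 78861819 to 78887010), was at 300.5, 270.4 and 218 CPM against 309, 445 and 319 CPM. The highest 2H-11 library nearly reached the lowest of SVEC4-10, and the difference was 1.47-fold (log2 fold change -0.55, SE 0.19, adjusted p = 0.0290). Eif2s2, the beta subunit (ENSMUSG00000074656, chromosome 2, 154871410 to 154892935), was at 827, 863 and 643 CPM against 908, 1084 and 1031 CPM, a 1.39-fold difference (log2 fold change -0.48, SE 0.16, adjusted p = 0.0283). Neither passed on Ensembl genes alone (adjusted p = 0.0607 and 0.0768) or without 2H-11 replicate 3 (0.0923 and 0.0931) or SVEC4-10 replicate 2 (0.125 and 0.0589). Eif2s1 was also lost without 2H-11 replicate 2 (0.0700) and Eif2s2 without SVEC4-10 replicate 3 (0.0589).

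The gamma subunit is encoded on both sex chromosomes, and both copies were read in every library. Eif2s3x was at 243, 197 and 190.2 CPM in 2H-11, beside 193, 265 and 186 CPM in SVEC4-10, and the lines overlapped (adjusted p = 0.624). Eif2s3y was at 38.0, 34.3 and 27.6 CPM against 37.4, 45.5 and 41.6 CPM (adjusted p = 0.125). Reads of Eif2s3y per 100 reads of Eif2s3x were 15.9 ± 1.45 in 2H-11 and 19.6 ± 2.59 in SVEC4-10 (SD, n = 3), with overlap. The similar copies could share reads. Of the 2 factors outside the complex that can also bring tRNA to the ribosome, Eif2a had a log2 fold change of 0.26 (SE 0.22) and Eif2d of -0.04 (SE 0.20), and neither passed.

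All 5 genes of eIF2B, the exchange factor that reloads eIF2 with GTP, were tested and 0 passed in edgeR, DESeq2 or limma-voom, with 0 at an unadjusted p under 0.05 in any of them. By edgeR 36.2% of all genes tested passed, and 5 genes are too few to read as a result about eIF2B. The log2 fold changes ran from -0.33 for Eif2b1 to 0.18 for Eif2b5. Eif2b1, the most counted, was at 163, 149 and 118 CPM against 151, 192 and 159.7 CPM. The lines overlapped for all 5.

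The subunits of eIF3, the scaffold on which the small subunit is assembled, had small log2 fold changes of both signs. Of 14 genes tested 0 passed by edgeR, DESeq2 or limma-voom, where 36.2% of all genes and 31.8% of those with Ensembl identifiers passed by edgeR. Of the 14, 6 had a positive and 8 a negative log2 fold change, and the median was -0.06, or 0.04 on Ensembl genes alone. At an unadjusted p under 0.05 there was 1 by edgeR and by DESeq2 and 2 by limma-voom. Eif3e, with the most reads, was at 641, 576 and 504 CPM against 419, 570.2 and 374 CPM (a log2 fold change of 0.23 with SE 0.18). Eif3d, Eif3h and Eif3i lay higher in every 2H-11 library without passing. Of these, Eif3d had 532, 428 and 380.0 CPM against 322, 328 and 343 CPM (adjusted p = 0.120), and passed with library size alone (0.0330) and on Ensembl genes alone (0.0380). Eif3a, the largest subunit, was at 399.8, 368 and 195 CPM against 342, 397 and 481 CPM, with the lowest value in 2H-11 replicate 3 (adjusted p = 0.118). It passed as lower without 2H-11 replicate 1 (0.0346) or SVEC4-10 replicate 1 (0.0298) and with no count filter (0.0176), and Eif3m passed as lower without SVEC4-10 replicate 1 (0.0387).

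The loosely attached j subunit has 2 genes. Eif3j2, which has a single exon, had 14.7, 12.7 and 8.75 CPM in 2H-11, beside 13.8, 21.5 and 18.1 CPM in SVEC4-10 (a log2 fold change of -0.67 with SE 0.27, adjusted p = 0.0600). Eif3j1 had 61.4, 72.8 and 71.9 CPM against 73.6, 65.3 and 70.4 CPM (adjusted p = 0.667). Both overlapped between the lines, and Eif3j2 passed without 2H-11 replicate 1 (adjusted p = 0.0349), without SVEC4-10 replicate 1 (0.0183) and with no count filter (0.0269).

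Factors of start-site choice and subunit joining gave 1 call among 8 (12.5%), beside 36.2% of all genes tested, too few genes to read as a result. Eif1a, an autosomal gene for the scanning factor eIF1A (ENSMUSG00000057561, chromosome 18, 46597701 to 46616456), was at 165, 157 and 99.2 CPM against 147, 240.3 and 207 CPM. SVEC4-10 replicate 1 fell among the 2H-11 libraries, and the call (1.53-fold lower, log2 fold change -0.61, SE 0.22, adjusted p = 0.0367) was lost without 2H-11 replicate 3 (0.138), SVEC4-10 replicate 2 (0.138) or SVEC4-10 replicate 3 (0.0758) and on Ensembl genes alone (0.0637). Its X-linked partner Eif1ax, with 314, 316 and 284 CPM against 245, 294 and 273 CPM, did not pass (adjusted p = 0.775).

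Eif1, which keeps the scanning ribosome open until a start codon is met, had 1685, 1403 and 1568 CPM against 2071, 1594 and 1863 CPM (adjusted p = 0.0895), and passed without SVEC4-10 replicate 2 (0.0289). Eif1b, its relative, had 39.4, 33.4 and 37.6 CPM against 42.3, 37.2 and 34.8 CPM. Eif5, which triggers GTP hydrolysis by eIF2, had 38.0, 36.3 and 37.4 CPM against 37.4, 51.5 and 60.0 CPM (adjusted p = 0.0665), and passed without SVEC4-10 replicate 1 (0.00962, log2 fold change -0.76). Eif1 and Eif5 also passed with no count filter (0.0409 and 0.0320). The lines overlapped for these 3 genes and for Eif6, which keeps the large subunit from joining early. Eif5b lay higher in every 2H-11 library without passing (log2 fold change 0.25, SE 0.18).

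The 2 genes for eIF5A, the only proteins known to carry hypusine, gave 1 call, and 2 genes are too few for a share to be read. Eif5a2 (ENSMUSG00000050192, chromosome 3, 28781276 to 28798846) was at 2.79, 2.68 and 1.54 CPM in 2H-11, from 15, 11 and 9 reads, and at 5.84, 6.34 and 6.43 CPM in SVEC4-10. The lines lay well apart, and Eif5a2 was 2.87-fold lower (log2 fold change -1.52, SE 0.36, adjusted p = 0.00259). Eif5a, the widely expressed gene, was at 1243, 1021 and 1259.9 CPM against 913, 981 and 904 CPM. All 2H-11 libraries were above those of SVEC4-10, and the difference did not pass (log2 fold change 0.24, SE 0.16, adjusted p = 0.257).

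Elongation factors gave 1 call among 6 tested (16.7%), beside 36.2% of all genes tested, too few genes to read as a result. Eef1g, the gamma subunit of the exchange complex (ENSMUSG00000071644, chromosome 19, 8967041 to 8978479), had 1459.7, 1219 and 1156 CPM against 1607, 1645 and 1543 CPM. Every 2H-11 library was lower, by 1.34-fold (log2 fold change -0.42, SE 0.15, adjusted p = 0.0356), and the call was lost on Ensembl genes alone (0.105) and without 2H-11 replicate 2 (0.166) or 3 (0.0801). The other exchange subunits did not pass: Eef1b2 had a log2 fold change of 0.08 (SE 0.15) and Eef1d of 0.29 (SE 0.25). Eef1d rested on unlike libraries, with 393, 549 and 672 CPM against 293, 585 and 350.0 CPM, and it passed without SVEC4-10 replicate 2 (adjusted p = 0.0332).

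Eef1a1, the most counted member, had 9234, 7887 and 6704 CPM in 2H-11, beside 6682, 7752 and 6355 CPM in SVEC4-10. The spread within 2H-11 was as wide as the difference between the lines (log2 fold change 0.09, SE 0.16, adjusted p = 0.691). Eef1a2, the copy used by neurons and muscle, had no read in either line, which allows up to 0.196 CPM in 2H-11, beside 0.121 CPM in SVEC4-10. Eef2, the translocase, was at 1668, 1346 and 1072 CPM against 2065, 1382 and 1668 CPM, and did not pass (adjusted p = 0.0683). It passed without 2H-11 replicate 1 (0.0124), without SVEC4-10 replicate 2 (0.0219) and with no count filter (0.0135). Eef1e1, a scaffold of the synthetase complex despite its symbol, had a log2 fold change of -0.27 (SE 0.21) and passed as lower without SVEC4-10 replicate 1 (adjusted p = 0.0346).

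Of 5 lysine methyltransferases of the elongation factors, 1 passed (20%), beside 36.2% of all genes tested, too few genes to read as a result. Eef1akmt3 (ENSMUSG00000080115, chromosome 10, 127031004 to 127041513) had 15, 30 and 36 reads in 2H-11, or 2.79, 7.31 and 6.18 CPM, against 1.17, 3.31 and 1.90 CPM. The lines overlapped, since 2H-11 replicate 1 lay below SVEC4-10 replicate 2. The difference was 2.45-fold (log2 fold change 1.29, SE 0.45, adjusted p = 0.0316), did not pass in DESeq2, and was lost without 2H-11 replicate 2 (0.149) or 3 (0.0857) or SVEC4-10 replicate 1 (0.120) or 3 (0.137). Eef1akmt1, the most counted, was at 80.9, 84.3 and 80.5 CPM against 76.9, 95.1 and 82.1 CPM.

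The balance between paralogs, as reads of one gene per 100 reads of the other, was compared within each library, where depth and gene length cancel between the lines. Eif4g3 gave 6.87, 7.16 and 7.17 reads per 100 of Eif4g1 in 2H-11 and 2.63, 2.14 and 3.79 in SVEC4-10. Eif5a2 gave 0.224, 0.262 and 0.123 reads per 100 of Eif5a in 2H-11 and 0.640, 0.646 and 0.711 in SVEC4-10. These balances shifted in opposite directions and without overlap. Eif4a2 gave 29.6, 29.0 and 21.2 reads per 100 of Eif4a1 in 2H-11 and 64.0, 40.2 and 34.3 in SVEC4-10, and Eif1a gave 45.7 ± 9.47 per 100 of Eif1ax against 72.6 ± 11.3 (SD, n = 3). Both pairs were lower in 2H-11 without overlap, and SVEC4-10 replicate 1 stood out for the eIF4A pair. Of the other pairs, Eif1b to Eif1 also had no overlap, at 2.37 ± 0.0291 against 2.08 ± 0.236 per 100, and Eif4e3 gave 0.810, 0.609 and 1.21 reads per 100 of Eif4e in 2H-11 and none in SVEC4-10. The balances of Eif4e2, Eif4g2, Eif4ebp2, Eif3j2 and Eif2s3y to their partners overlapped. No test was made on these ratios. They are made of the same counts as the calls above and add no separate support to them. Of all single genes tested 46.8% had no overlap between the lines, and the share among other gene pairs was not taken.

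**Figure D3:**
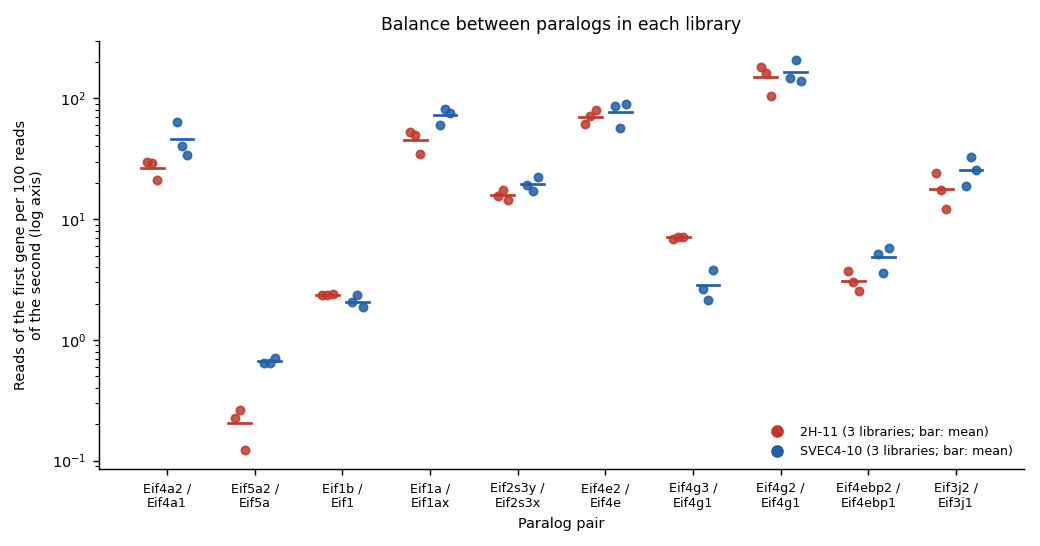
Reads of the first gene per 100 reads of the second (log axis) in each library for 10 paralog pairs; each point is 1 library and each bar the mean of 3 libraries of a line. The lines are apart for the pairs led by Eif4a2, Eif5a2 and Eif1a, lower in 2H-11, and by Eif4g3, higher in 2H-11, and nearly meet for Eif1b, higher in 2H-11.

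Some of these messages belong to the TOP class, whose transcripts start with a run of pyrimidines through which mTOR governs their translation. From textbook knowledge 9 members were counted as TOP messages: Eef1a1, Eef1b2, Eef1d, Eef1g, Eef2, Eif3e, Eif3f, Eif3h and Eif4b. Eif4b was higher, Eef1g lower, and the other 7 did not pass. Their median log2 fold change was 0.09, beside -0.10 for the other 50 members tested and 0.00 for 85 genes with ribosomal protein symbols, of which 7 were higher and 8 lower. Of all genes tested 36.2% passed, beside 22.2% of the 9 TOP messages and 17.6% of the 85 ribosomal protein genes. RefSeq starts (GRCm38.p6) were at hand for 47 of the 63 members and for 5 of the 9. The 30 bases from 5 before the RefSeq start to 25 after it are shown for those 5 and for the sex-linked pair of eIF2 gamma. They are read 5′ to 3′ on the gene's strand, with the longest run of C and T in capitals.
Eef1a1: CCCTCTTCCCgagggtgggggagaacggta
Eef1b2: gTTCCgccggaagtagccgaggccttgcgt
Eef2: cgggcgttgacgtcagcggTCTCTTCCgcc
Eif3f: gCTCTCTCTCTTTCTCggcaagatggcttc
Eif4b: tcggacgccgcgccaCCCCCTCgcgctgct
Eif2s3x: TTTTCCTTTTCTCTCCgagcaagatggctg
Eif2s3y: cagccaCTTCCTTCTTTCgtgagcaagatg

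The windows lie at chr9:78481700-78481729 on the minus strand, chr1:63176826-63176855 on the plus strand, chr10:81176626-81176655 on the plus strand, chr7:108934410-108934439 on the plus strand, chr15:102073768-102073797 on the plus strand, chrX:94212627-94212656 on the minus strand and chrY:1010590-1010619 on the plus strand, in the same order. The longest run had 10 bases in Eef1a1, 8 in Eef2, 15 in Eif3f, 7 in Eif4b and 4 in Eef1b2. In the sex-linked pair it had 16 bases for Eif2s3x and 12 for Eif2s3y. A run of at least 8 bases, read on the gene's strand, was present in 10.3% of all 32851 RefSeq start windows of this length. It was present in 3 of the 5 TOP messages and in 11 of the 47 members. The 47 were counted by gene, with a run in any window of the gene, so that this count and the share of windows are unlike measures. Of the 3 TOP messages, Eef1a1 and Eif3f have it across the RefSeq start. That of Eef2 begins at base 15 after the RefSeq start and so does not lie across it. The run of Eif4b begins at base 11. RefSeq starts can lie away from the true start, which was not mapped here. A run in a window, that of Eef1a1 included, may then lie outside the transcript. Neither a long nor a short run in the window says anything on the class of the message.

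The position of the members was examined after their values had been seen. Over all genes tested with GENCODE coordinates, the median log2 fold change of a chromosome ran from -0.58 on chromosome 10 to 0.28 on chromosome 15, leaving out the members and the Y chromosome. All 6 members on chromosome 15 (Eef1d, Eif3d, Eif3e, Eif3h, Eif3l and Eif4b) had positive values, from 0.20 to 0.59, where the median of the 417 other genes tested there was 0.28. These 6 were positive in each of the 18 alternatives too, but their median, 0.26, fell to 0.09 without SVEC4-10 replicate 1, to 0.15 without SVEC4-10 replicate 3 and to 0.18 without 2H-11 replicate 1, while that of the other genes was 0.29, 0.25 and 0.25. The 3 members on chromosome 12 (Eif2s1, Eif2b2 and Eif5) ranged from -0.55 to -0.16, beside a median of -0.44 for 340 other genes. The 3 on chromosome 19 (Eef1g, Eif3a and Eif1ad) ranged from -0.45 to -0.19, beside -0.45 for 366 other genes. On chromosome 10, Eef2 at -0.41 and Eif4ebp2 at -0.48 stood beside -0.58 for 497 other genes.

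Distances from the median of the chromosome are given for the 4 members called at 2-fold or more, whose differences exceed every chromosome median in size. Eif4a2 lay 1.31 below that of chromosome 16 on the log2 scale (log2 difference -1.31) and Eif5a2 had a log2 difference of -1.55 from that of chromosome 3. Eif4g3 stood 1.16 above the median of chromosome 4 and Eef1akmt3 stood 1.87 above that of chromosome 10. Both members tested on chromosome 18, Eif1a and Eif3j2, were negative (-0.61 and -0.67), while the 245 other genes there had a median of 0.21. Across the 59 members, 39 lay on the same side of 0 as the median of the other genes of their chromosome (Pearson's r 0.21, Spearman's rho 0.43, a description over genes that share the same 6 libraries).

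**Figure D4:**
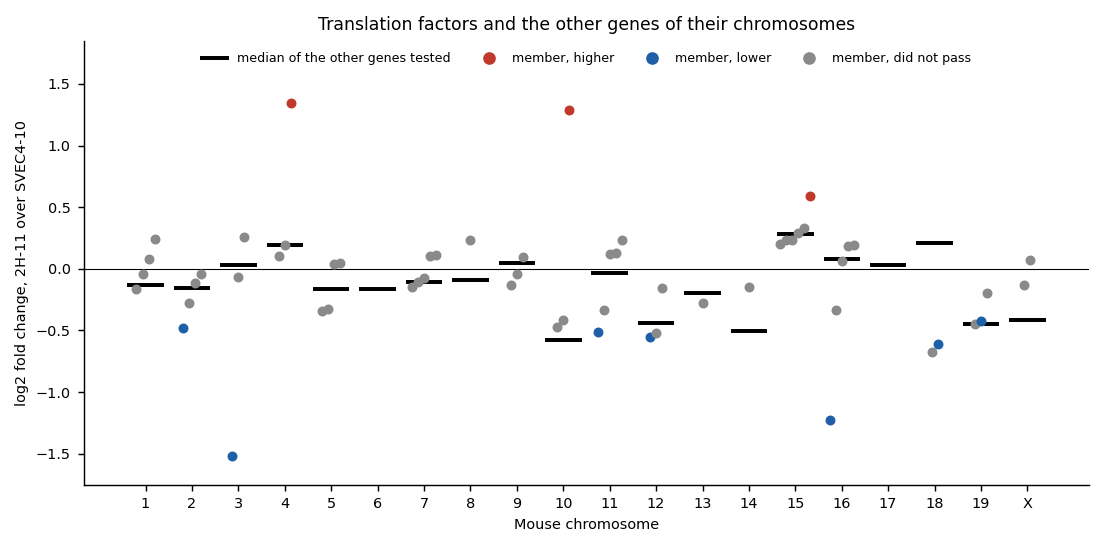
Log2 fold change of 2H-11 over SVEC4-10 of each member (points, coloured by the test) by mouse chromosome (autosomes and X), with the median of the other genes tested on that chromosome (black bars). The 6 members on chromosome 15 lie between 0.20 and 0.59 around a bar at 0.28, and Eif4a2, Eif5a2, Eif4g3 and Eef1akmt3 lie far from their bars on chromosomes 16, 3, 4 and 10.

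Other genes of translation were taken in 7 lists by role. Of 72 tested (73 of 75 symbols were found), 5 were higher and 9 lower, or 19.4%, where 36.2% of all genes and 31.8% of those with Ensembl identifiers passed. The lists are small, and the shares of the kinase list (42.9%) and the mitochondrial list (50%) rest on 7 and 10 genes and are not read as results about them. The kinases and phosphatase subunits acting on eIF2 and eEF2, with 1 of 7 higher and 2 lower, held the 2 largest differences among the genes named by the smallest p. Eif2ak2, the interferon-induced kinase PKR that phosphorylates eIF2 alpha, was at 44.5, 44.1 and 27.8 CPM in 2H-11, beside 121, 122 and 127 CPM in SVEC4-10, 3.42-fold lower (log2 fold change -1.77, SE 0.20, adjusted p = 1.36e-06). Eef2k, the kinase that inhibits eEF2, went the other way, at 12.1, 9.50 and 9.27 CPM against 2.57, 3.31 and 3.75 CPM (a log2 fold change of 1.54 with SE 0.31, adjusted p = 0.000702). Neither gene overlapped between the lines.

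In the mTOR and MNK list 1 of 9 passed, Mtor itself, 2.06-fold higher at 36.8, 34.6 and 31.4 CPM against 15.4, 16.3 and 15.1 CPM (adjusted p = 0.000661). Rheb, its activator, did not pass (adjusted p = 0.0549). Mitochondrial translation factors had 1 of 10 higher and 4 lower, led by Mrrf, the ribosome recycling factor, at 69.6 ± 6.69 against 107 ± 7.35 CPM (SD, n = 3, adjusted p = 0.00438), and by the release factor Mtrf1l at 2.82 ± 0.534 against 6.30 ± 1.64 CPM (adjusted p = 0.0113). Among enzymes of hypusine and diphthamide, the modified residues of eIF5A and eEF2, Dph1 was higher (log2 fold change 0.99, SE 0.26) and Dph7 lower (-0.69, SE 0.24), and the other 7 of 9 did not pass. Among poly(A)-binding proteins and partners Paip2 was higher (0.50, SE 0.17) and Paip1 lower (-0.86, SE 0.27), and 8 of 10 did not pass. Mcts1, a recycling factor, was lower (-1.26, SE 0.31), and Gspt1, a release factor, did not pass (adjusted p = 0.171).

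The last list held the cytosolic aminoacyl-tRNA synthetases, which charge the tRNAs that eEF1A delivers, and their scaffold proteins Aimp1 and Aimp2. It gave 0 calls among 22 genes in edgeR, DESeq2 and limma-voom, with 1, 1 and 2 at an unadjusted p under 0.05. By edgeR 36.2% of all genes tested and 31.8% of those with Ensembl identifiers passed. The median log2 fold change of the 22 was 0.00 and the range -0.48 to 0.31. Farsb had the smallest p (adjusted p = 0.0688) and Eprs the next (0.141).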

How the data were processed

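Direct RNA libraries (kit SQK-RNA002, 1 ug of total RNA, per the labels' protocols) of 2H-11 and SVEC4-10, 3 each, were compared. The authors deposited raw read counts per gene and the same counts as CPM, per the file headers. The submitters' processing notes name builds mm10 and GRCm38; for the aligner, counter, strand use and annotation, a name is not given in the sources used here. In all 13 broken lines without a gene were left out. Genes passed filterByExpr (minimum count 10, minimum total 15), were scaled by TMM and tested with edgeR 4.0.16 (R 4.3.3), with line as the only term and a threshold of adjusted p 0.05 over 13187 genes. Fold changes are 2H-11 over SVEC4-10; the fitted values use all 6 libraries. The biological coefficient of variation was 20.2%. The script was checked on simulated counts. Alternatives, 18 in all, included DESeq2 1.42.0 and limma-voom (limma 3.58.1). Coordinates are from GENCODE M21 (GRCm38), which holds 22022 of the 22036 Ensembl identifiers. Values per library were to be given for members past the threshold at 2-fold or more, the 6 others with the smallest p, the most counted of each role and paralog pairs, and the 2 smallest p of each neighbouring list; any other gene was named with its values in view. The members and lists were chosen with earlier results of these data known. Reads shared between paralogs, or with processed copies, were left as the authors assigned them. Tables were made with pandas 2.3.3 and numpy 2.4.6 in Python 3.11.15, and figures with matplotlib 3.10.9.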

Additional observations from a re-analysis of the deposited data

How the results depend on the processing

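No member that passed in the main fit or in an alternative changed sign between them. The 3 higher and 7 lower members became 4 and 3 with library size alone, 4 and 12 with no low-count filter, 4 and 2 on Ensembl genes alone, 3 and 4 after thinning to the smallest library, and 0 and 0 against a 2-fold change. Over all genes, 2645 higher and 2133 lower became 1657 and 1631 on Ensembl genes alone and 1134 and 671 against a 2-fold change. The neighbouring translation genes, 5 higher and 9 lower, became 3 and 13 with no filter and 0 and 1 against a 2-fold change. Leaving out 1 library gave 1 to 4 members higher and 2 to 12 lower, 2281 to 2929 and 1754 to 2220 for all genes, and 3 to 5 and 4 to 12 for the neighbouring genes. Members lower were 2 without 2H-11 replicate 3, 4 without 2H-11 replicate 2 or SVEC4-10 replicate 3 and 12 without SVEC4-10 replicate 1; members higher were 1 without SVEC4-10 replicate 3. Neighbouring genes higher were 3 without 2H-11 replicate 1, 2H-11 replicate 2 or SVEC4-10 replicate 3, and lower were 4 without 2H-11 replicate 2. The cause of these changes was not tested. Of 49 members not called, 39 were called in no alternative.

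Same-numbered libraries of the lines had correlations of deviations of -0.026, 0.057 and -0.0091, and 2 of 6 libraries correlated best with their own number. With so few libraries, these values cannot say whether the numbers mark a shared preparation. With the replicate block 3 members were higher and 7 lower, 9 of the 10 called being shared; Eif1a no longer passed and Eef2 did (adjusted p = 0.0390).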

Other observations

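The subunits of eIF3 occur once each in the complex, yet their reads per kilobase of the longest coding transcript were far from equal. Leaving out the j subunit, Eif3f stood at 7.55 CPM per kb in 2H-11 and 7.44 in SVEC4-10. The other 11 subunits ranged from 21.8 for Eif3b to 381 for Eif3e in 2H-11, and from 19.9 for Eif3b to 344 for Eif3m in SVEC4-10. By this measure Eif3f was below every other subunit in both lines, from 12.8, 18.0 and 26.1 CPM in 2H-11 and 17.1, 11.6 and 27.4 CPM in SVEC4-10. A direct RNA read stands for 1 molecule, so that counts need no division by length. The division brings differences of length into the values per kb, which are no measure of the balance of subunits. The cause of the low count was not tested.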
